A study of Homo sapiens with 6 samples.

Results

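RCH NSD2-knockdown chromatin was described as 2 classes of open region that separate the sh2 sample from the NT sample of RCH cells. RCH is taken here as RCH-ACV, the B-cell precursor acute lymphoblastic leukaemia line named in the growth conditions. The sh2 cells are read as carrying a short hairpin RNA against NSD2, and the NT cells as carrying a non-targeting hairpin. The labels spell out neither name, nor the vector, the time after delivery or the degree of knockdown, and NSD2 itself was not measured in these files. Each group was 1 sample with 2 peak lists, here called sh2 list 1 and 2 and NT list 1 and 2. Nothing says that the 2 lists of a sample came from separate cultures, so their spread may be technical and no test between the groups was made.

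The 4 lists were merged on chromosomes 1 to 22, where peaks sharing at least 1 bp became 1 region, which gave 74529 regions. A region was called sh2-only when both sh2 lists and neither NT list had a peak in it, and NT-only in the reverse case. There were 1458 sh2-only regions and 7757 NT-only regions, or 9215 exclusive regions in all. The whole series, with the lines RS4;11 and SEM added, merged into 126189 regions. Coordinates are in hg19, the build of the lists. The gene tables at hand are on another build, so no region was assigned to a gene and the B-lineage identity of the cells was not checked at marker genes.

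NSD2 is a histone methyltransferase that places dimethylation on lysine 36 of histone H3, a mark of active chromatin that opposes the repressive methylation of lysine 27 by the Polycomb complex. Activating NSD2 changes recur in B- and plasma-cell cancers, acute lymphoblastic leukaemia among them. ATAC-seq inserts sequencing adapters into accessible DNA with the Tn5 transposase, so a peak marks a stretch that was open in many cells. In bulk cells, fewer open cells and less opening per cell cannot be told apart.

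The sh2 lists were shorter than the NT lists. They held 43043 and 40506 peaks in sh2 cells, against 54740 and 55364 in NT cells. The means were 41775 ± 1794 in sh2 and 55052 ± 441 in NT (SD over 2 lists each), a log2 ratio of -0.40. The sh2 peaks covered 17.5 and 16.7 Mb, against 22.3 and 22.5 Mb in NT. Column 5 of the lists, read from its values as the fold enrichment of a peak over background, had a median of 5.42 and 5.32 in the sh2 lists and 6.09 and 6.12 in the NT lists. The read depth behind the lists is unknown. The steps between the commonest column 5 values gave a background level for each list. It was 2.55 and 2.57 in the sh2 lists and 1.62 and 1.94 in the NT lists. Whether it follows read depth was not tested. Because the fold is not scaled between lists, peaks are compared below by percentile of fold within their own list, where 100 is the strongest peak. The part of read depth in the class sizes was not tested; class sizes with lists of equal length are given at the end.

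At regions found in 1 list only, NT list 2 stood apart from the other 3 lists. Regions found only in NT list 2 had a peak in an average list of the other lines in 42.2% of cases. The same share was 23% and 20.6% for regions found only in sh2 list 1 or 2, and 23.8% for those only in NT list 1. Over whole lists it did not: 72.4% of its peaks had a peak in an average list of the other lines. The values were 68.9% for NT list 1 and 75.5% and 76.0% for sh2 list 1 and 2. Without NT list 2 there were 2655 sh2-only and 16643 NT-only regions, and the sh2-only share of exclusive regions was 13.8%. Leaving out NT list 1 instead gave nearly the same, with 2645 sh2-only and 16961 NT-only regions and a share of 13.5%.

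Sh2-only regions were 1.96% of all regions and NT-only regions 10.4%. The sh2-only share of exclusive regions was 15.8% (exact 95% binomial interval 15.1 to 16.6%, counting error only). A further 27704 regions, 37.2%, were open in all 4 lists. The 4 lists can also be crossed, with 1 sh2 and 1 NT list on each side. The crossed classes held 940 regions (1.26%) for sh2 list 1 with NT list 1 and 813 (1.09%) for sh2 list 2 with NT list 2. They held 1162 (1.56%) for sh2 list 1 with NT list 2 and 764 (1.03%) for sh2 list 2 with NT list 1. The NT-only class was thus several times the size of every crossed class, while the sh2-only class was larger than each of them by a smaller margin. This contrast rests on lists of unequal length: with equal lists both classes were over 3 times the size of the largest crossed class.

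**Figure D1:**
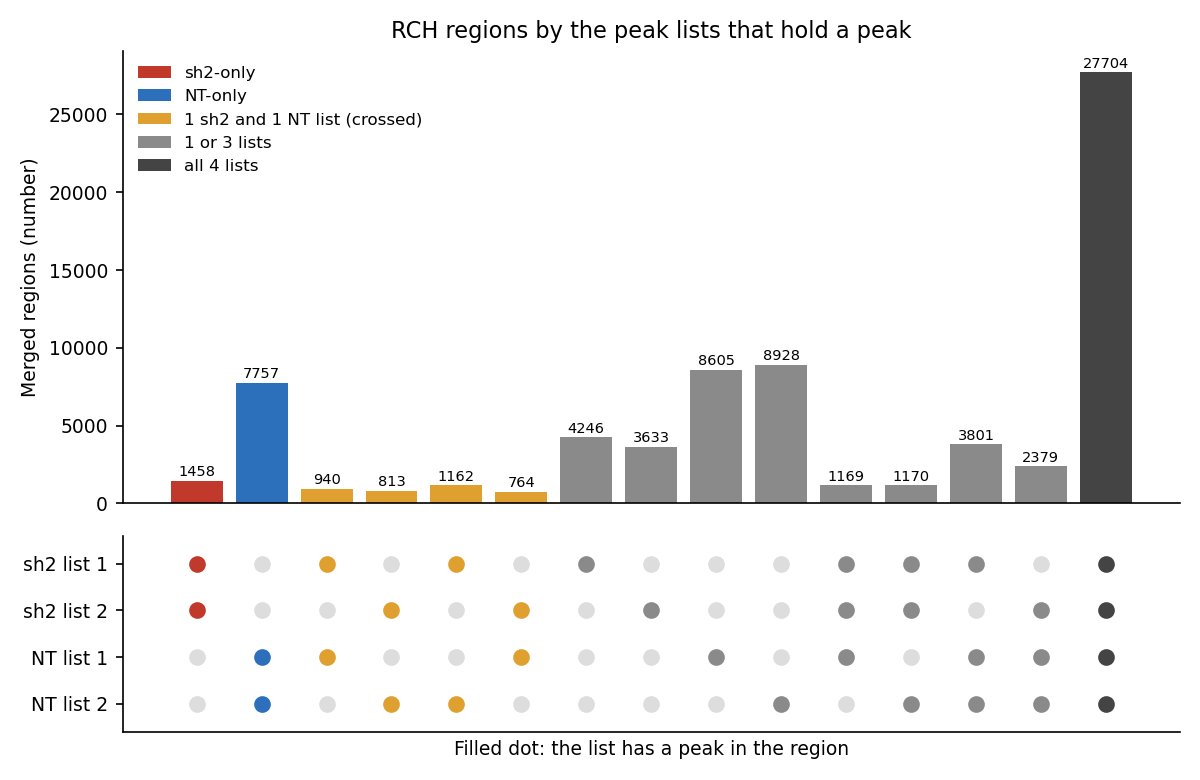
Number of merged RCH regions by the lists that hold a peak in them. The 7757 NT-only regions exceed every crossed class, whereas the 1458 sh2-only regions lie closer to the largest crossed class of 1162.

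Other regions missed a class by 1 list. Peaks in both sh2 lists and in NT list 1 alone were found in 1169 regions, and in both sh2 lists and NT list 2 alone in 1170. Peaks in both NT lists and sh2 list 1 alone were found in 3801 regions, and in both NT lists and sh2 list 2 alone in 2379. In these regions the lone sh2 peak had a median percentile of 31.1 in list 1 and 27.6 in list 2, and the lone NT peak 29.0 and 28.7. The lone NT peaks thus ranked lower than the peaks of NT-only regions given next. The lone sh2 peak ranked above sh2-only peaks in list 1 (31.1 against 29.0) and below them in list 2 (27.6 against 29.95).

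Exclusive regions were narrow and weak in both classes. Their median width was 245 and 243 bp in the sh2 lists for sh2-only regions and 266 and 271 bp in the NT lists for NT-only regions. Regions open in all 4 lists were wider, with medians of 424 and 416 bp in sh2 and 469 and 468 bp in NT. The median percentile was 29.0 and 29.95 for sh2-only regions and 36.3 and 36.4 for NT-only regions. In the crossed classes it was 21 to 27.6. The median fold was 4.43 and 4.41 for sh2-only peaks and 5.24 and 5.27 for NT-only peaks. Width and fold belong to the peaks that formed the classes, so these values only describe them.

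Few exclusive regions were strong peaks. Above the median fold of their list lay 17.9% and 17.3% of sh2-only peaks and 28.3% and 29.4% of NT-only peaks. No sh2-only peak reached the strongest 10% of either sh2 list, and 14 and 12 NT-only peaks reached that of the NT lists. When regions with a peak in both lists of a sample were divided into 10 bins of mean percentile, each 10 points wide, 20.1% of the weakest sh2 bin was sh2-only and 0 of 3987 in the strongest, with an exact upper bound of 0.0925%. On the NT side 45.7% of the weakest bin was NT-only, against 0.117% (6 of 5150) of the strongest.

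**Figure D2:**
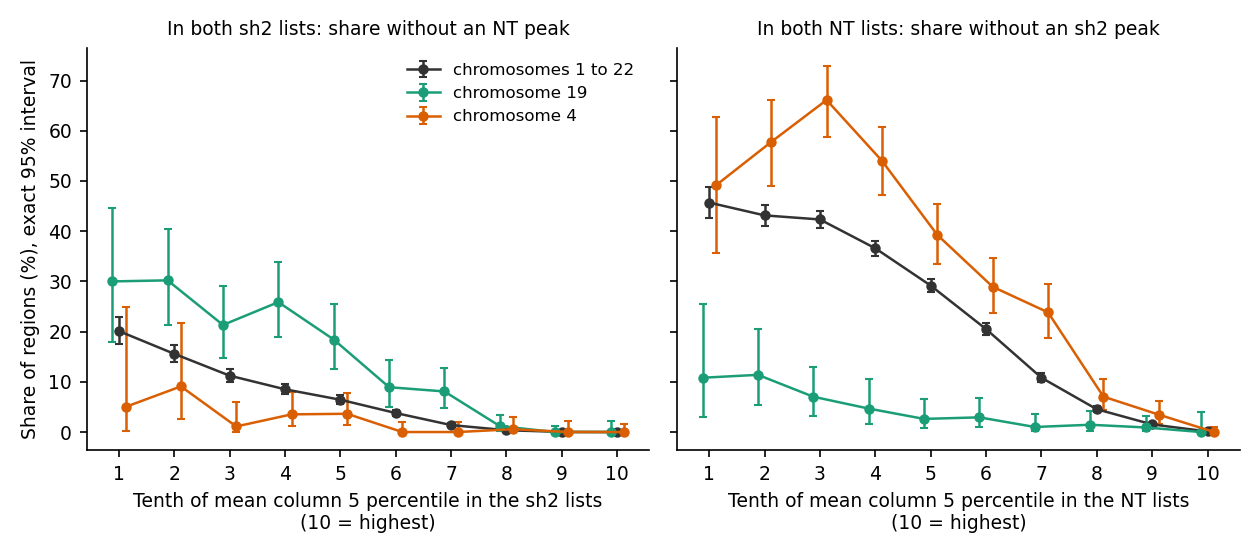
Share of regions with a peak in both lists of a sample that had none in the other sample, by 10-point bin of mean percentile, for all chromosomes, chromosome 19 and chromosome 4. Bars are exact 95% binomial intervals; in the third bin from the weakest, NT regions without an sh2 peak were 7.03% on chromosome 19 and 66.1% on chromosome 4.

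The strongest sh2-only region spanned positions 46755770 to 46756087 of chromosome 17. Its fold was 8.45 and 8.57 in the sh2 lists, and 5 of the 8 lists of the other lines also had a peak there. The next spanned 98423235 to 98423533 of chromosome 2. It had 8.73-fold and 7.11-fold enrichment in the sh2 lists and a peak in 7 of the 8 other lists. Another, at 72667407 to 72667745 of chromosome 17, reached 7.32-fold and 7.84-fold enrichment, with no peak in any list of the other lines. The widest sh2-only region covered 985 bp on chromosome 17 from 36297169 to 36298153, yet its peaks were 985 bp wide in sh2 list 1 and 200 bp in sh2 list 2.

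NT-only regions reached higher folds, though fold is not scaled between lists. At regions open in all 4 lists the median fold was 6.75 and 6.44 in sh2 and 8.39 and 8.30 in NT. By mean percentile the strongest NT-only region stood at 92.6, against 80.3 for the strongest sh2-only region. The strongest NT-only region spanned 86538500 to 86539206 of chromosome 14. Its enrichment was 12.03-fold and 13.8-fold in the NT lists, and it had a peak in all 8 lists of the other lines. At 57982481 to 57982912 of chromosome 13 the enrichment was 13.7-fold and 11.9-fold, and the closest region shared by the 4 lists was 1134 kb away. Another, at 50867975 to 50868335 of chromosome 17, reached 12.2-fold and 12.95-fold, with no peak in any other line. The widest NT-only region covered 1309 bp on chromosome 10 from 52750510 to 52751818, with NT peaks of 1309 and 517 bp.

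Both classes occurred on every chromosome, but in unequal proportions. Of the exclusive regions on chromosome 19, 172 were sh2-only and 43 NT-only, a share of 80.0% (74.0 to 85.1%). Chromosome 22 had 99 and 35 (73.9%), chromosome 17 had 149 and 142 (51.2%), and chromosome 16 had 107 and 110 (49.3%). At the other end, chromosome 4 had 18 sh2-only and 629 NT-only regions (2.78%), and chromosomes 3 and 13 stood at 5.16% and 5.35%. The share was above 50% on 3 of the 22 chromosomes. In the 2 crossed splits the share was taken for the side with sh2 list 1. Over the chromosomes it ran only from 42.7 to 67.8% when paired with NT list 1 and from 50 to 73.0% with NT list 2. Expressed per region open in both sh2 lists, 10.4% on chromosome 19 and 1.27% on chromosome 4 were sh2-only, against 4.63% over all. Per region open in both NT lists, 3.09% and 26.6% were NT-only, against 18.6% over all.

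The regions open in all 4 lists belong to neither class, so their ranks give a separate measure in the same lists. For this the 27704 regions were ranked among themselves in each list from 0 to 100, and the mean NT rank of each region was subtracted from its mean sh2 rank. The median of this rank shift was 15.3 points on chromosome 19, 12.02 on chromosome 22, 9.62 on chromosome 17 and 6.44 on chromosome 16. It was -4.01 on chromosome 18, -2.66 on chromosome 4 and -2.50 on chromosome 13, against 0.51 over all chromosomes. The median rank of chromosome 19 regions was 60.9 and 60.7 in the sh2 lists and 39.3 and 38.8 in the NT lists. On that chromosome each sh2 list set against each NT list gave 13.8 to 14.1 points. Both sh2 ranks exceeded both NT ranks at 60.4% of the chromosome 19 regions and lay below both at 6.62%. All 4 pairs of lists were above 0 on 10 chromosomes and below 0 on 10. Taken between the 2 lists of a sample, the chromosome median of the same region-by-region difference was at most 1.09 points in size in sh2 and 1.87 in NT. Peak width moved along the same chromosomes, with a median sh2 over NT ratio of 1.09 on chromosome 19, 1.07 on chromosome 22 and 0.863 on chromosome 4, against 0.921 over all.

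**Figure D3:**
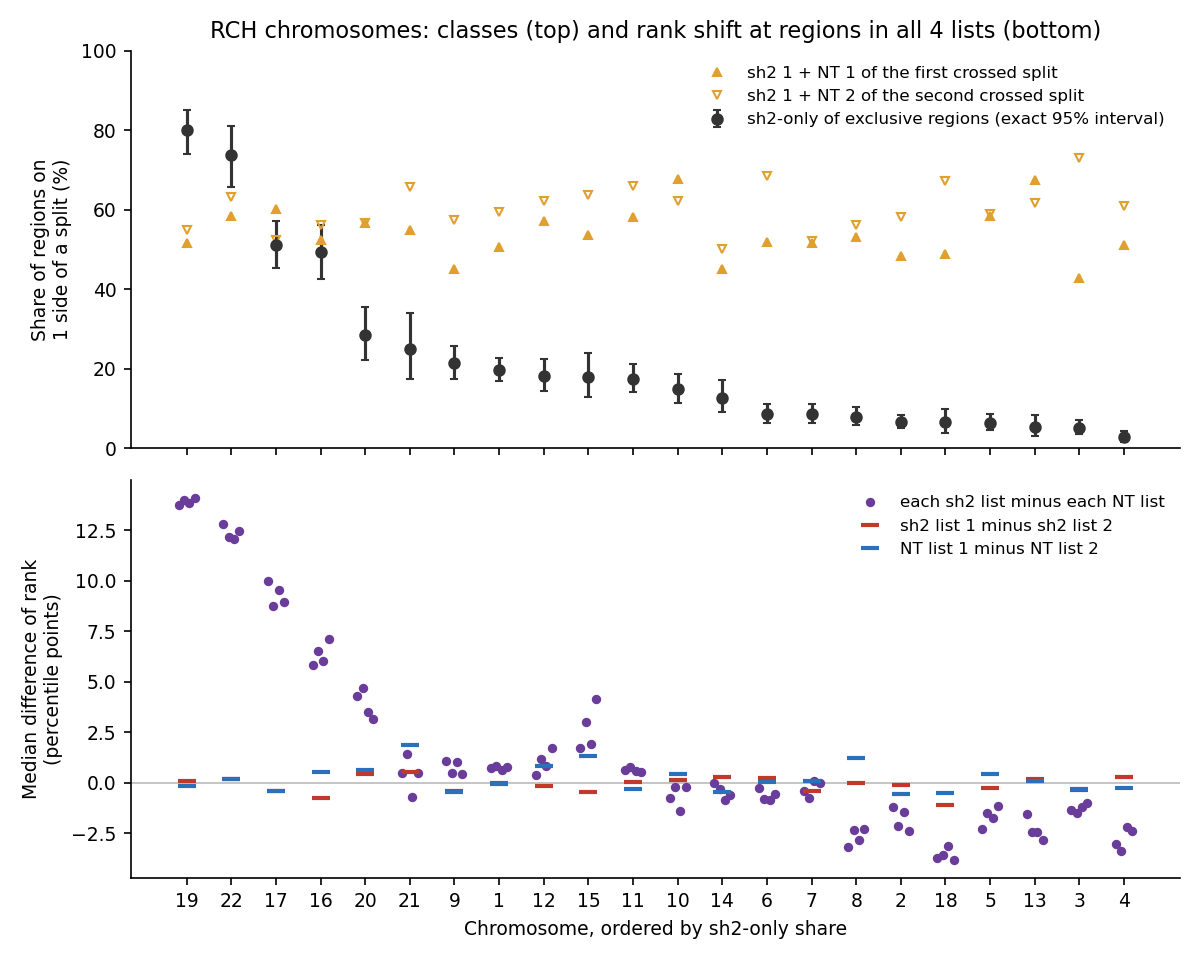
For each chromosome, the sh2-only share of exclusive regions with its exact 95% binomial interval, beside the shares in the crossed classes. Below are median rank differences (percentile points) of each sh2 list from each NT list at regions open in all 4 lists. The differences between the lists of a sample are also drawn. Chromosome 19 is highest in both, at 80.0% and 13.8 to 14.1 points, followed by chromosome 22 at 73.9% and 12.1 to 12.8 points.

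Sh2-only regions lay closer than NT-only regions to regions open in all 4 lists. Regions open in all 4 lists come from the same peak calls as the classes. Stretches rich in NT-only regions can hold fewer of them, so the distance is not independent of the class rule. The closest region shared by the 4 lists was at a median distance of 13.96 kb for sh2-only regions (quartiles 5.42 and 32.8 kb) and 41.8 kb for NT-only regions (12.8 and 115 kb). For the crossed classes it was 16.3 to 20.0 kb. Beyond 100 kb lay 6.17% of sh2-only regions (4.99 to 7.53%) and 28.1% of NT-only regions (27.1 to 29.1%). On each of the 22 chromosomes the NT-only median was the larger one. The nearest peak of the other condition was at a median of 7.11 kb from sh2-only regions and 21.7 kb from NT-only regions. Within 1 kb such a peak was found for 241 sh2-only (16.5%) and 846 NT-only regions (10.9%). The NT lists hold more peaks than the sh2 lists, so these distances have unequal targets.

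Local density was counted as how many regions shared by the 4 lists lay within 500 kb on either side. This count uses the same peak calls as the classes and leaves NT-only and sh2-only regions out. It is therefore not independent of the class shares given with it. The median count was 19 for sh2-only regions and 8 for NT-only regions, against 12 for all RCH regions. It was 18 for regions in both sh2 lists and either NT list alone, and 11 for regions in both NT lists and either sh2 list alone. With 0 to 2 such neighbours the sh2-only share of exclusive regions was 2.31%, with 11 to 20 it was 20.4%, and with 41 or more it was 81.0%. The rank shift of regions open in all 4 lists went the same way, at -8.21 points with 0 to 2 neighbours, 0.41 with 11 to 20 and 15.2 with 41 or more. Without chromosomes 16, 17, 19 and 22, which were picked after their values were seen, the share was 1.37% at 0 to 2 neighbours. It was 69.0% at 41 or more, from only 20 sh2-only and 9 NT-only regions (exact interval 49.2 to 84.7%). On chromosome 19 the share at 11 to 20 neighbours was already 83.8% (31 sh2-only and 6 NT-only regions).

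**Figure D4:**
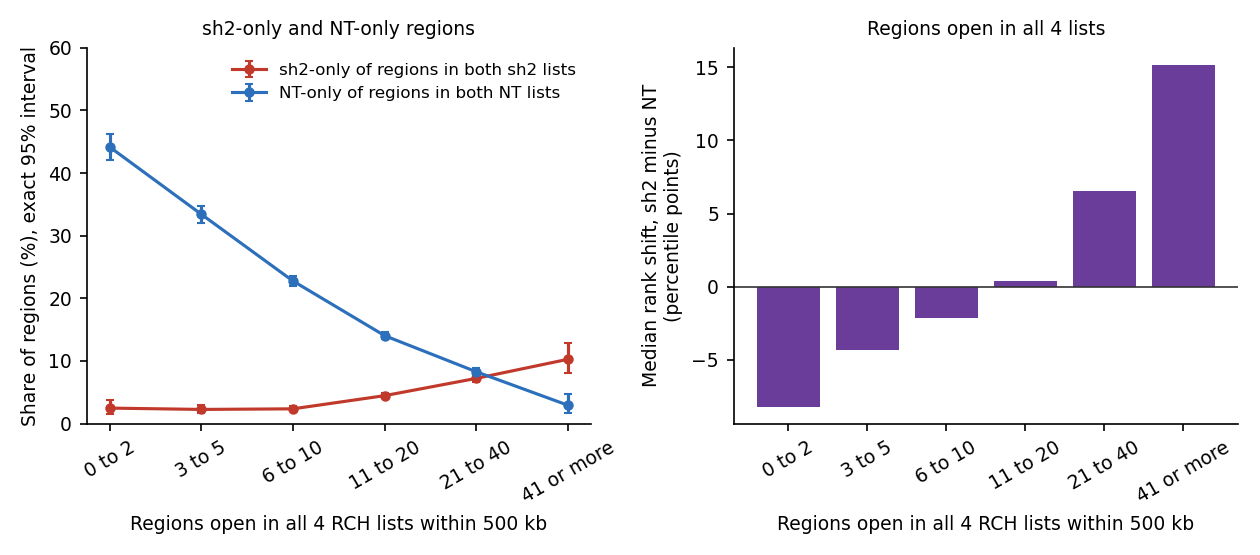
Exclusive regions and rank shift by local density, the count of all-list regions within 500 kb, which uses the same peak calls as the classes. Of regions with a peak in both sh2 lists, 2.48% were sh2-only at 0 to 2 neighbours and 10.3% at 41 or more. Of regions with a peak in both NT lists, 44.2% and 2.92% were NT-only. The rank shift is -8.21 and 15.2 percentile points in the same density classes.

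Within 5 Mb of the outermost regions of a chromosome lay 24.8% of sh2-only regions and 5.89% of NT-only regions, against 11.7% of all RCH regions. The nearest region of the same class was at a median of 177 kb for the smaller sh2-only class and 97.0 kb for the larger NT-only class. With lists of equal length this order turned round, at 82.0 kb for sh2-only and 198 kb for NT-only regions. Chains of same-class regions, with gaps of up to 100 kb and none of the other class between, held 34.4% of sh2-only regions in 204 chains and 50.6% of NT-only regions in 1599. These chain shares were not adjusted for the unequal class sizes.

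The sh2-only chain with most members ran on chromosome 16 from 2053853 to 2241076, where 6 of 23 regions were sh2-only. That interval had 19 and 20 peaks in the sh2 lists and 12 and 10 in the NT lists. The next had 5 sh2-only regions on chromosome 19 from 14459311 to 14667732, with 22 and 18 peaks in sh2 and 12 and 14 in NT. Among NT-only chains, 8 of 13 regions on chromosome 2 from 213402511 to 213728301 were NT-only, with 2 and 2 peaks in sh2 and 12 and 12 in NT. On chromosome 4 from 86853831 to 87200795 it was 8 of 11 regions, with 1 and 1 peaks in sh2 and 10 and 10 in NT.

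The 8 lists of RS4;11 and SEM took no part in the class rule. RS4;11 and SEM are B-cell precursor leukaemia lines with a KMT2A-AFF1 fusion, each deposited as 1 sh2 and 1 NT sample. A peak in the RS4;11 sh2 lists was found at 38.5% and 40.3% of sh2-only regions, and in the RS4;11 NT lists at 43.96% and 37.1%. Of the NT-only regions, 51.1% and 53.3% had a peak in the RS4;11 sh2 lists and 74.1% and 68.9% in the RS4;11 NT lists. In SEM, 49.3% and 43.6% of sh2-only regions had a peak in the sh2 lists and 45.1% and 44.5% in the NT lists. For NT-only regions the SEM values were 50.1% and 49.1% in sh2 and 45.2% and 46.5% in NT. Over all RCH regions the shares were 59.1% and 60.03% in RS4;11 sh2, 68.5% and 64.6% in RS4;11 NT, 59.0% and 57.7% in SEM sh2, and 54.8% and 55.2% in SEM NT. In none of the 8 lists lay 359 sh2-only regions (24.6%) and 1283 NT-only regions (16.5%), against 20.96% of all RCH regions and 13.5 to 30.2% of the crossed classes.

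These lists differ in length, so each was also reduced to its 40506 strongest peaks. Sh2-only regions then had a peak in 19% and 18.7% of cases in RS4;11 sh2, against 10.0% and 11.2% in RS4;11 NT. NT-only regions had 35.9% and 36.6% in RS4;11 sh2, against 45.9% and 44.8% in RS4;11 NT. In SEM, sh2-only regions had 25.4% and 22.3% in sh2 and 31.9% and 29.4% in NT, while NT-only regions stood at 34.0% and 34.3% in sh2 and 36% and 35.8% in NT. All RCH regions had 46.8% and 46.8% in RS4;11 sh2 and 46.4% and 46.7% in RS4;11 NT. They had 45.2% and 45.1% in SEM sh2 and 46.8% and 46.4% in SEM NT. Where all 4 lists of another line had a peak, peaks were ranked among those regions in each list. The median rank shift (mean sh2 rank minus mean NT rank) in RS4;11 was 4.85 points at 328 sh2-only regions and -3.09 at 3441 NT-only regions, against 2.19 at the 23713 regions that the 4 RCH lists shared and 1.08 at all RS4;11 regions with a peak in its 4 lists. In SEM it was -2.86 at 404 sh2-only regions and 2.19 at 2400 NT-only regions, against -2.44 at the 22196 regions that the 4 RCH lists shared and -1.01 at all SEM regions with a peak in its 4 lists. The SEM value at sh2-only regions thus lay close to that at regions shared by the RCH lists. The difference between lines was not tested.

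**Figure D5:**
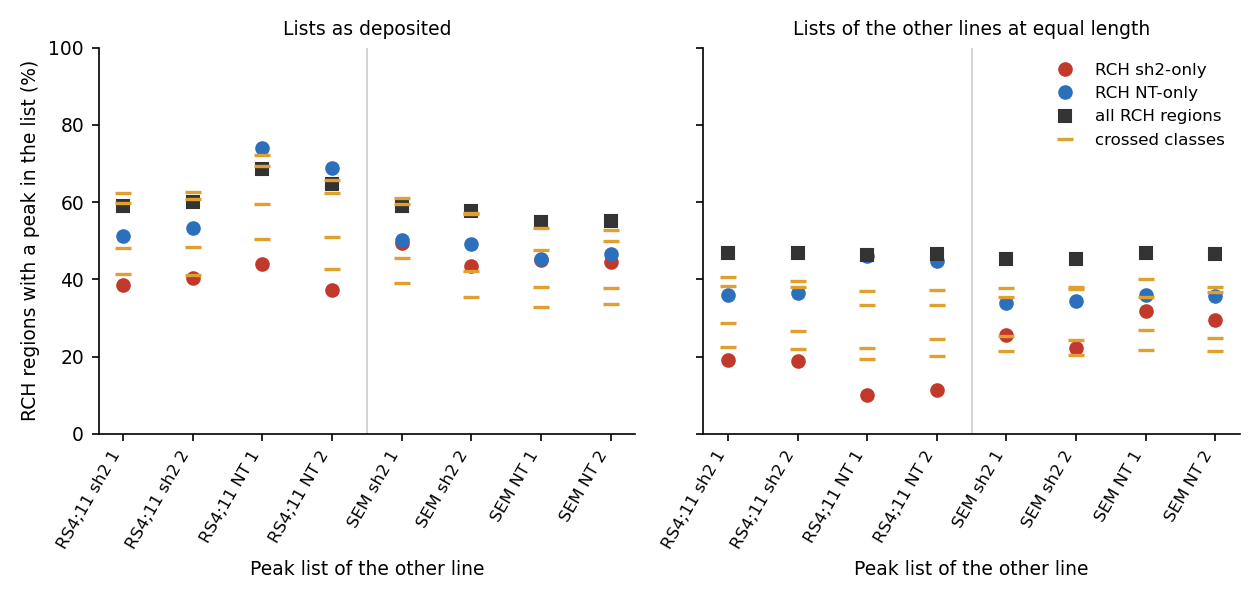
Share of sh2-only and NT-only RCH regions with a peak in each list of RS4;11 and SEM, with the lists as deposited and cut to 40506 peaks. In the cut lists sh2-only regions have a peak more often in RS4;11 sh2 (19% and 18.7%) than in RS4;11 NT (10.0% and 11.2%). Each crossed class has the same direction.

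Class sizes depended on list length. With all 4 RCH lists cut to 40506 peaks, 3100 regions were sh2-only and 4003 NT-only, a share of 43.6%. The crossed classes then held 863, 701, 918 and 775 regions. Of those 3100 regions, 1301 were sh2-only as deposited, 929 had a peak in 1 NT list and 870 in all 4 lists. The share was then 94.7% on chromosome 19 and 16.1% on chromosome 4, so their order was the same as in the lists as deposited.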

How the data were processed

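ATAC-seq peak lists of 6 samples (3 lines, sh2 and NT), with 2 lists each, were used as deposited. Bowtie2, MACS2 and hg19 are named in the submitters' processing notes; for their versions, settings, duplicate handling and any Tn5 shift, nothing was stated (not given in the sources used here). Column 5 of the deposited lists was read, from its values, as a fold enrichment, a ratio that the authors' peak caller gave and that is not normalized between lists. Read depth is unknown.

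The 4 RCH lists were merged on chromosomes 1 to 22 at 1 bp overlap, leaving out 5837 of their peaks on other chromosomes. The tools were scipy 1.17.1, matplotlib 3.10.9, pandas 2.3.3 and numpy 2.4.6 under Python 3.11.15, and the region code was tested on simulated data. With 1 sample per group no test was made. Intervals are exact Clopper-Pearson 95% binomial intervals for counting error only; PCR reads are not independent molecules.

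Regions to be named were, per class, the 5 of highest mean percentile, the 3 widest, the 3 chains with most members and the 3 strongest absent from the other lines; the text gives a subset of them. The members and lists were chosen with earlier results of these data known. The gene-locus and sequence comparison was planned for an hg19 annotation and was not run. Alternatives were lists of equal length, a pooled median threshold on column 5, 50% coverage, 1 kb distance, chromosome X and leaving out each list. The cut of the other lines' lists, the pairwise rank shifts and equal lists by density were added after the data were seen.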

Additional observations from a re-analysis of the deposited data

Results flagged for a closer look

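Peak numbers gave a log2 ratio of sh2 to NT lists of -0.40 in RCH and 0.21 in SEM, with RS4;11 at -0.34. Both RCH sh2 lists were shorter than both RCH NT lists, and the SEM ratio had the opposite sign. The difference was not tested.

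At regions open in all 4 lists of a line, the median rank shift of chromosome 19 (sh2 minus NT) was 15.3 points in RCH and -7.64 in SEM, with RS4;11 at 6.78. The signs of RCH and SEM are also opposite, and the difference was not tested.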

How the results depend on the processing

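No paired analysis was possible because each group is 1 sample and the numbers of its 2 lists are not given by the labels as pairing lists across groups. With RCH lists of equal length, there were 3100 sh2-only and 4003 NT-only regions (share 43.6%), and median widths were 270.5 and 291 bp. The NT-only percentile was then 49.5, spacing 82.0 kb (sh2-only) and 198 kb (NT-only), and NT-only distance to regions open in all lists 55.0 kb. The share was 94.7%, 91.8%, 81.3%, 16.1% and 18.5% on chromosomes 19, 22, 17, 4 and 13, and 7.81%, 11.3%, 28.9%, 60.2%, 86.7% and 100% from the fewest to the most neighbours, the last from only 2 regions (exact interval 15.8 to 100%). Occupancy in RS4;11 sh2, RS4;11 NT, SEM sh2 and SEM NT was 55.8%, 56.5%, 57.1% and 56.1% of sh2-only regions, and 57.9%, 78.3%, 55.9% and 51.1% of NT-only regions.

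With peaks above the pooled median fold of 5.76, the lists held 19290 and 17525 peaks in sh2 and 29383 and 30621 in NT. There were 356 sh2-only regions (share 5.07%), widths were 340 and 363 bp, percentiles 66.2 and 63.6, distances 34.3 and 70.6 kb and spacing 660 and 115 kb (sh2-only, then NT-only). The share was 46.0%, 25%, 27.6%, 0.895% and 1.26% on the same 5 chromosomes. Occupancy in the same order was 73.9%, 74.0%, 79.8% and 77.0% of sh2-only, and 74.4%, 85.3%, 72.7% and 68.7% of NT-only regions. The order of the class percentiles turned round under this threshold, which kept a smaller share of each sh2 list than of each NT list. The cause was not tested.

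Where peaks had to cover 50% of a region, widths were 260 and 289 bp, percentiles 31.4 and 40.1, distances 16.1 and 51.1 kb and spacing 144 and 83.3 kb. At more than 1 kb from the other condition the share was 15.0%. With only the other lines' lists cut, mean occupancy was 18.9%, 10.6%, 23.9% and 30.6% of sh2-only, and 36.2%, 45.4%, 34.1% and 35.9% of NT-only regions. Adding chromosome X moved none of the 4 values computed with it beyond its interval or 1.5 times.

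Leaving out 1 list at a time gave 2645 to 5771 sh2-only regions, 10164 to 16961 NT-only regions and a share of 13.5 to 36.2%. Widths were 223 to 257 bp (sh2-only) and 240 to 281.5 bp (NT-only), percentiles 17.5 to 31.0 and 24.5 to 39.0, distances 12.6 to 18.0 kb and 29.8 to 41.7 kb, and spacing 84.2 to 114 kb and 42.6 to 71.5 kb. The share was 65.3 to 85.3% on chromosome 19, 55.4 to 81.7% on 22, 42.7 to 63.4% on 17, 3.28 to 20.7% on 4 and 4.72 to 19.4% on 13. Occupancy of sh2-only regions was 25.7 to 53.5% in RS4;11 sh2, 27.5 to 54.8% in RS4;11 NT, 28.8 to 56.9% in SEM sh2 and 27.01 to 54.7% in SEM NT. For NT-only regions it was 37.0 to 58.9%, 52.2 to 74.5%, 34.7 to 55.6% and 31.0 to 51.2% in the same order. The pairwise rank shifts of chromosomes 19 and 4 kept their sign in all 4 pairs of lists. The lists give no read depth, so no detection limit could be set.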
